A study of Homo sapiens with 13 samples.

Results

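The BCL2 and IAP apoptosis regulators are 10 genes that help set whether a cell enters programmed death, and they were read across 9 RNA-seq libraries and 2 lists of m6A summits from MDA-MB-231, a human cell line of triple-negative breast cancer. The members were taken by gene symbol (BIRC2, XIAP, MCL1, BCL2L1, BCL2, BAK1, BID, BCL2L11, CASP8 and CFLAR), and all 10 were found among the 38616 genes of the counts table. All lines were stable lines made with lentivirus: VIRMA (KIAA1429) knockout lines labelled sg1 and sg2, called guides here, and a non-targeting control labelled NTC, with 3 libraries each. VIRMA holds together the enzyme complex in the nucleus that writes N6-methyladenosine (m6A) on messenger RNA. For m6A mapping, MeRIP-seq enriches broken-up mRNA with an m6A antibody, and there was 1 pull-down and 1 input for VIRMA knockdown cells (KD) and 1 of each for NTC cells. The labels do not say whether a line was 1 clone or a pool, or how the KD cells relate to sg1 and sg2. Nor is it stated that the 3 libraries of each group were grown apart, so the p-values here cover no more than the spread between libraries, which may be technical.

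Apoptosis is started at mitochondria or at death receptors. At mitochondria, BAK1 and its relative BAX form pores that release cytochrome c, BCL2, BCL2L1 (BCL-XL) and MCL1 hold them in check, and BH3-only proteins such as BCL2L11 (BIM) and BID relieve that check. At death receptors, CASP8 is the initiator caspase and CFLAR (cFLIP) competes with it. Of the inhibitor of apoptosis proteins, XIAP binds and blocks caspases, and BIRC2 (cIAP1) is a ubiquitin ligase that works in TNF receptor and NF-kB signalling. MCL1, BCL2L1, BCL2L11 and CFLAR are known for splice forms of opposed or different activity, and counts per gene do not separate them.

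The libraries held 13975173 to 22051705 gene reads in sg1, 14477699 to 17865878 in sg2 and 14099143 to 16351606 in NTC. Levels are normalized counts, the reads of a gene divided by 1 factor per library. VIRMA itself was at 1437 to 1613 normalized counts in sg1, 1566 to 2170 in sg2 and 2122 to 2689 in NTC. Its log2 fold change was -0.60 ± 0.15 with sg1 (SE; limma adjusted p = 0.0718, and 0.0441 with same-numbered sg1 and sg2 libraries as pairs) and -0.30 ± 0.15 with sg2 (adjusted p = 0.236), and sg2 overlapped NTC. Without sg2-1 the VIRMA value with sg2 was -0.16 (adjusted p = 0.247) and that with sg1 passed (-0.60, adjusted p = 0.000885). A knockout can leave its mRNA in place, so this is a weak check of the labels. Markers of the line were present (VIM from 18031 to 27031, EGFR from 2173 to 4512) and ESR1 and PGR stayed at or below 7.07, while ERBB2, listed as low, was at 911 to 1820. On the first principal component (53.3% of the variance) the library sg2-1, at 29.6, lay nearer sg1 (46.1 to 56.8) than sg2-2 and sg2-3 (-68.5 and -77.2). In sg1-3, 351 genes were at 100 or more and at least 8-fold above all NTC, both other sg1 libraries, sg2-1 and sg2-2, and 0 members are among them. Where leaving out sg2-1 or sg1-3 changed a call of a member against NTC or between the guides, the value without it is given beside the result. Leaving out sg2-1 raised limma calls over all 15965 tested genes. Against NTC they went from 31 to 6490 for sg1 and from 1399 to 7160 for sg2. For the average of the guides they went from 636 to 3455, and between the guides from 4758 to 10037. A pass gained in that fit therefore does not single out a member.

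Against NTC 1 member passed the test, and 3 differed between the guides. All 10 members passed the filter on low values. With sg1, 0 of 10 members passed limma, where 0.194% of all tested genes passed. At an unadjusted p below 0.05 were 3 members (29.8% of tested genes). For sg1 edgeR called 0 members and 27 of all 15965 tested genes, and DESeq2 called 2 members and 2229 genes. With sg2, 0 of 10 passed limma, where 8.76% of all tested genes passed. At an unadjusted p below 0.05 were 6 members (26% of tested genes). For sg2 edgeR called 0 members and 1583 genes, and DESeq2 called 4 members and 2655 genes. In the mean of both guides 1 of 10 passed (3.98% of tested genes), with 4 at an unadjusted p below 0.05 (20.9%). Between the guides 3 of 10 passed, at the level of all tested genes, 29.8%.

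Libraries of the guide did not overlap NTC for 6 of 10 members with sg1 (52.3% of tested genes) and for 6 of 10 with sg2 (27.8%). For BIRC2, XIAP, MCL1 and BCL2, 4 of 10 members, all 6 knockout libraries lay to 1 side of NTC, which held for 10.5% of tested genes. Overlap was read in the normalized counts alone and can differ under another scaling of the libraries. The guides did not overlap each other for 5 of 10 members (41.9% of tested genes). The median log2 fold change of the members was -0.17 with sg1 and -0.26 with sg2, beside -0.01 and 0.03 over all tested genes. Both comparisons share the NTC libraries.

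Start sites of 9 of the 10 members were matched in RefSeq (GRCh38.p14). The 250 bases before the most 5′ listed start are shown for the 4 members that passed a test: BIRC2 in the guides against NTC, and BAK1, BCL2L11 and CFLAR between the guides. Capitals mark the letters searched, on both strands: GGGCGG for a GC box, TATAAA for a TATA box, CACGTG for an E-box, TGACG for the core of a cAMP response element, CCGGAAG for an ETS site, GGGANTTCC for a form of the NF-kB site and CCAAT for a CCAAT box. In CFLAR the GC box and the NF-kB letters overlap.
BIRC2 promoter, chr11:102346964-102347213, plus strand: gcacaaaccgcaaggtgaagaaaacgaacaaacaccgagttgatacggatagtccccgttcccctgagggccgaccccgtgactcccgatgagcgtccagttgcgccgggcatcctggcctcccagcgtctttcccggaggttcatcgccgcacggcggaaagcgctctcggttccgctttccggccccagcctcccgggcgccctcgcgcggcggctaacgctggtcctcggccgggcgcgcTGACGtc
BAK1 promoter, chr6:33580277-33580526, minus strand: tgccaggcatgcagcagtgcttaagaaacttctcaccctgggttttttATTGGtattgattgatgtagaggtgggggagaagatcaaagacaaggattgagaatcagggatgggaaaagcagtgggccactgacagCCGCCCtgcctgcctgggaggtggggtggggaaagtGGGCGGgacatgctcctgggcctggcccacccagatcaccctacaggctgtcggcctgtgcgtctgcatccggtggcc
BCL2L11 promoter, chr2:111120664-111120913, plus strand: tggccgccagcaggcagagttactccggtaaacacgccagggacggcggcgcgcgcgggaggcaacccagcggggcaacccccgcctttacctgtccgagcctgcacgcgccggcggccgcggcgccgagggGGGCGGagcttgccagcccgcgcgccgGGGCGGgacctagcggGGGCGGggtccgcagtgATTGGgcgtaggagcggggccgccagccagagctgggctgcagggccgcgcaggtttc
CFLAR promoter, chr2:201118466-201118715, plus strand: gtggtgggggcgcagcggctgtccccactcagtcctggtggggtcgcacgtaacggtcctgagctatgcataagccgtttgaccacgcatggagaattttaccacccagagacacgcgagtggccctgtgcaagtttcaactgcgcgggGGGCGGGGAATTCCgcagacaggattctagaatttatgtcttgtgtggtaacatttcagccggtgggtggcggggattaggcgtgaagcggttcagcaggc
The CFLAR start lies 2552 nt inside the RefSeq span of the gene, and the others lie at its 5′ end. The NF-kB letters of the CFLAR stretch occur in 1.6% of the 35116 promoters in the table. The letters of the cAMP response element, once in BIRC2, occur in 21.2% of them. GC boxes, 3 in BCL2L11, 2 in BAK1 and 1 in CFLAR, occur in 42.6%, and the CCAAT letters, once in BAK1 and once in BCL2L11, in 32%. TATA box, E-box and ETS letters were in none of the 4 stretches and occur in 10.7%, 6.3% and 8.5% of promoters. GC content was 67.6% in BIRC2, 58% in BAK1, 76.8% in BCL2L11 and 58.8% in CFLAR, where the median promoter has 58%. A match is a run of letters and says nothing of binding.

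In the normalized counts both inhibitor of apoptosis genes lay lower in all knockout libraries than in NTC. BIRC2 passed the test in the mean of both guides. BIRC2, the ubiquitin ligase cIAP1 (hg38 chr11:102347214-102378670), had 4920, 4885 and 3998 normalized counts in sg1, 5356, 5531 and 5656 in sg2, and 7783, 7187 and 6582 in NTC. The highest knockout library stayed under the lowest NTC library, and sg1 lay below sg2. In RNA from whole cultures, fewer cells with a transcript and less of it per cell cannot be told apart. BIRC2 fell to 0.70 times the NTC level in the mean of both guides (log2 fold change -0.51 ± 0.11 (SE), limma adjusted p = 0.032). With sg1 alone the log2 fold change was -0.65 ± 0.12 (adjusted p = 0.0607) and with sg2 alone -0.38 ± 0.12 (adjusted p = 0.0859). The sg1 value passed with same-numbered sg1 and sg2 libraries as pairs (adjusted p = 0.0425) and with only sg1 and NTC in the fit (adjusted p = 0.00182). Without sg2-1 BIRC2 passed with sg1 (adjusted p = 0.000484), with sg2 (0.0178) and in sg2 against sg1 (0.29, adjusted p = 0.0328; 0.27 with all libraries, adjusted p = 0.117). When single libraries were left out, the BIRC2 call held only without sg2-1 (adjusted p = 0.00308), and over all alternatives its adjusted p ranged from 0.000102 to 0.204 while the log2 fold change stayed between -0.57 and -0.42.

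XIAP, the caspase inhibitor (chrX:123859708-123913972), had 2172, 2093 and 1880 normalized counts in sg1, 1878, 2086 and 2060 in sg2, and 2614, 2438 and 2389 in NTC. Again, in these normalized counts, no knockout library reached the lowest NTC library. The log2 fold change was -0.28 ± 0.11 with sg1, -0.31 ± 0.11 with sg2 and -0.29 ± 0.09 over both guides (SE; limma adjusted p = 0.126, 0.102 and 0.106), so XIAP did not pass. Without sg2-1 XIAP passed with sg1 (adjusted p = 0.0113), with sg2 (0.0234) and over both guides (0.0158; over all alternatives 0.0133 to 0.395). In the same fit 6490, 7160 and 3455 of all 15965 tested genes passed these tests. The XIAP log2 fold change with sg1 ranged from -0.32 to -0.06 over all alternatives (adjusted p = 0.0113 to 0.683). Its value of -0.06 came with libraries scaled by their total gene reads, so the size of the XIAP fall with sg1 depends on the scaling.

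**Figure D1:**
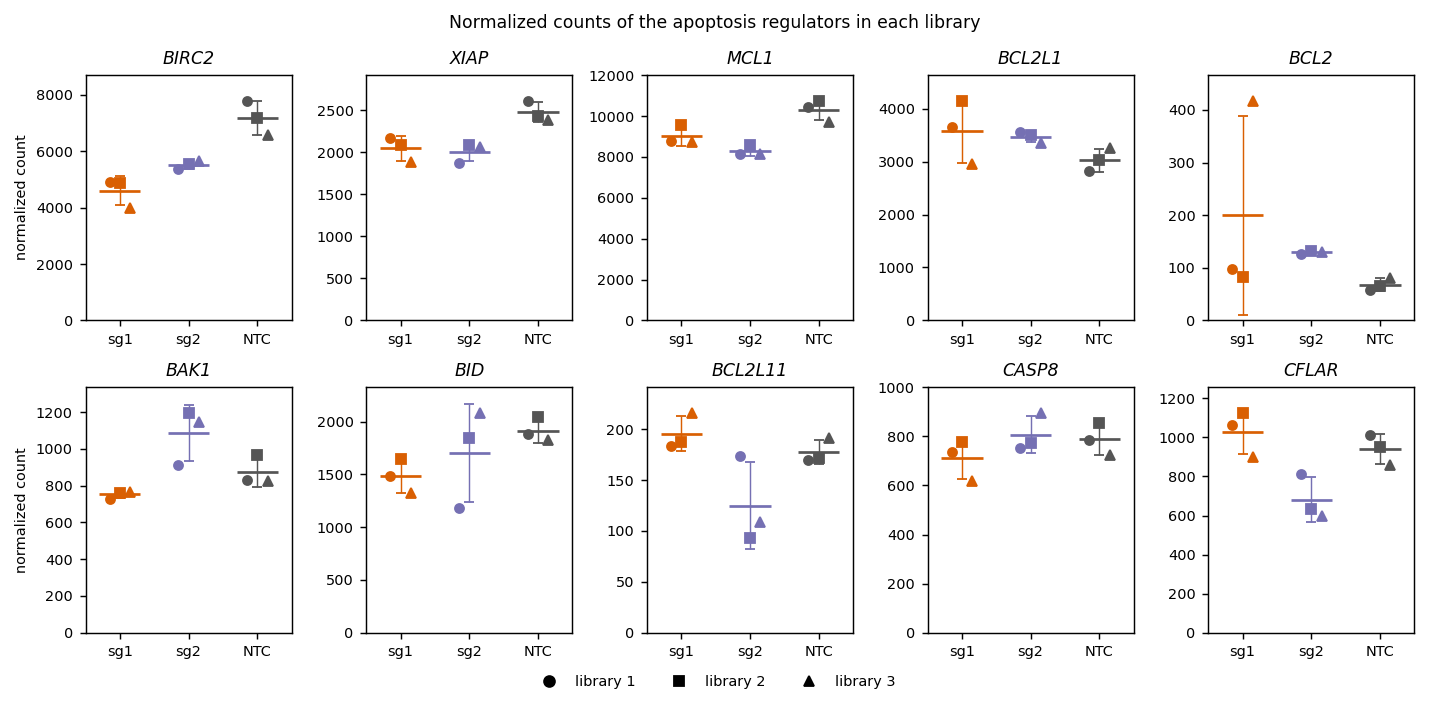
Normalized counts (y axis, linear from 0) of the 10 members in sg1, sg2 and NTC (x axis); symbols are the 3 libraries, the long bar is the group mean and the error bar the SD. BIRC2, XIAP and MCL1 lie lower in all 6 knockout libraries than in NTC, BCL2 lies higher with 1 far value of 417 in sg1-3, and CFLAR, BCL2L11, BAK1 and BID have their sg2-1 value apart from sg2-2 and sg2-3.

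Of the guardians of mitochondria, none passed the test against NTC: MCL1 lay lower and BCL2 higher in all 6 knockout libraries, and BCL2L1 higher in all but sg1-3. MCL1, a short-lived BCL2 relative (chr1:150574558-150579610), had 8788, 9582 and 8720 normalized counts in sg1, 8132, 8607 and 8156 in sg2, and 10459, 10746 and 9731 in NTC. The groups did not overlap, but the gap between the highest knockout and the lowest NTC library was small. Its log2 fold change was -0.19 ± 0.11 with sg1, -0.31 ± 0.11 with sg2 and -0.25 ± 0.10 over both guides (SE; limma adjusted p = 0.257, 0.106 and 0.17). Without sg2-1 MCL1 passed with sg1 (adjusted p = 0.0445), with sg2 (0.0091) and over both guides (0.0183; over all alternatives 0.0143 to 0.457), and with libraries scaled by their total gene reads the sg1 value turned to 0.03. In sg2 against sg1 MCL1 was at -0.12 (limma adjusted p = 0.399), and with that scaling it passed (-0.37, adjusted p = 0.0402).

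BCL2L1, which encodes BCL-XL (chr20:31664452-31723963), had 3647, 4146 and 2952 normalized counts in sg1, 3566, 3501 and 3349 in sg2, and 2815, 3021 and 3249 in NTC. All sg2 libraries lay above NTC, whereas sg1-3 lay within the NTC range. The log2 fold change was 0.23 ± 0.14 with sg1 and 0.20 ± 0.14 with sg2 (SE; limma adjusted p = 0.265 and 0.396). Without sg1-3 and sg2-1 together the sg1 value passed (log2 fold change 0.36, adjusted p = 0.00525), and without sg1-2 it was 0.12 (adjusted p = 0.604).

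BCL2, the founding member of the family (chr18:63123346-63320090), had 98.4, 83.3 and 417 normalized counts in sg1, 126, 132 and 131 in sg2, and 57.2, 64.7 and 81.45 in NTC. All 6 knockout libraries lay above NTC, and sg1-3 was 4.59 times the mean of sg1-1 and sg1-2 and 3.17 times the next highest library. The log2 fold change was 1.16 ± 0.49 with sg1 and 0.94 ± 0.49 with sg2 (SE; limma adjusted p = 0.153 and 0.266), and both rest on 1 estimate of the spread, to which sg1-3 adds. Without sg1-3 the sg2 value passed (0.94, adjusted p = 0.0174; over all alternatives 0.0011 to 0.497) and the sg1 value was 0.43 (adjusted p = 0.234). In sg2 against sg1 BCL2 was at -0.22 (adjusted p = 0.736), and without sg1-3 and sg2-1 together it passed in the other direction (0.53, adjusted p = 0.0358). Of the 4 markers of other cell types, PTPRC, of leukocytes, was at 108 in sg1-3 and at most 17.7 elsewhere. COL1A1, of fibroblasts, was at 118 in sg1-3 and at most 91.95 elsewhere, ALB, of liver, at most 4.55 in any library, and PECAM1, of endothelium, from 235 to 869. Their part in the BCL2 value was not tested.

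Between the guides, the pore former BAK1 was higher and the BH3-only gene BCL2L11 was lower with sg2. BAK1 (chr6:33572552-33580276) had 911, 1195 and 1150 normalized counts in sg2, 728, 762 and 767 in sg1, and 828.5, 968 and 827 in NTC. All sg2 libraries lay above all sg1 libraries, and sg2-1 was the lowest of sg2. BAK1 rose by 0.52 ± 0.13 on the log2 scale in sg2 against sg1, 1.43-fold (SE; limma adjusted p = 0.0231). Against NTC it did not pass with sg1 (log2 fold change -0.21, adjusted p = 0.281) or sg2 (0.31, adjusted p = 0.173), and without sg2-1 the sg2 value passed (0.43, adjusted p = 0.0032). With libraries scaled by their total gene reads, the sg1 value turned to 0.00 and the difference between the guides was 0.27 (adjusted p = 0.0697).

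BCL2L11, which encodes BIM (chr2:111120914-111168445), had 173, 92.8 and 108 normalized counts in sg2, 183, 188 and 216 in sg1, and 169, 172 and 191 in NTC. The sg2-1 library lay with NTC, and sg2-2 and sg2-3 lay well below every other library. In sg2 against sg1 BCL2L11 fell by 0.69 ± 0.22 on the log2 scale, to 0.62 times the sg1 level (log2 fold change -0.69, limma adjusted p = 0.0408). The log2 fold change against NTC was 0.14 ± 0.22 with sg1 (adjusted p = 0.68) and -0.55 ± 0.22 with sg2 (adjusted p = 0.143), and without sg2-1 the sg2 value was -0.82 (adjusted p = 0.00111). The difference between the guides did not pass with edgeR on recovered reads (adjusted p = 0.0569), with numbers blocked across all libraries (0.051) or with no filter on low values (0.0644).

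BID, the BH3-only protein that CASP8 cleaves (chr22:17734138-17774665), had 1184, 1848 and 2081 normalized counts in sg2, 1489, 1647 and 1327 in sg1, and 1881, 2040 and 1822 in NTC. All sg1 libraries lay below NTC, while the sg2 libraries ran from the lowest to the highest value of all 9. The log2 fold change was -0.37 ± 0.19 with sg1 and -0.21 ± 0.19 with sg2 (SE; limma adjusted p = 0.218 and 0.545). Without sg2-1 the sg2 value turned to 0.04, the sg1 value, still -0.37, passed (adjusted p = 0.00937), and sg2 against sg1 was 0.40 (adjusted p = 0.00561).

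At the death receptor branch, CFLAR differed between the guides and CASP8 did not pass in any comparison. CFLAR, the cFLIP gene (chr2:201116164-201176687), had 811, 636 and 596 normalized counts in sg2, 1062, 1124 and 900 in sg1, and 1013, 953 and 858 in NTC. All sg2 libraries lay below all other libraries, and sg1 overlapped NTC. CFLAR fell by 0.60 ± 0.15 on the log2 scale in sg2 against sg1, to 0.66 times the sg1 level (SE; limma adjusted p = 0.0217). Against NTC the sg2 value was -0.48 ± 0.15 (adjusted p = 0.0734; 0.0464 with same-numbered sg1 and sg2 libraries as pairs; 0.00141 without sg2-1) and the sg1 value 0.13 ± 0.15 (adjusted p = 0.565). Of 19 alternatives, 4 called CFLAR with sg2 (adjusted p = 0.000202 to 0.237).

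CASP8 (chr2:201233463-201287711) had 753, 774 and 895 normalized counts in sg2, 736, 777 and 618 in sg1, and 785, 856 and 726 in NTC. The 3 groups overlapped throughout, with log2 fold changes of -0.15 ± 0.13 for sg1, 0.03 ± 0.13 for sg2 and 0.19 ± 0.13 for sg2 against sg1 (SE; limma adjusted p = 0.422, 0.905 and 0.274). Over the alternatives none of these passed.

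The calls of BAK1, BCL2L11 and CFLAR between the guides depended on which libraries entered the fit, more than their fold changes did. Each held without sg2-1, where all 3 differences were larger (0.64 for BAK1, -0.95 for BCL2L11 and -0.73 for CFLAR on the log2 scale), and each was lost without any 1 of sg1-1, sg1-2, sg1-3, sg2-2 and sg2-3. In those fits the log2 differences were 0.44 to 0.53 for BAK1, -0.74 to -0.51 for BCL2L11 and -0.70 to -0.51 for CFLAR, and calls over all genes numbered 17 to 153, against 4758 with all libraries. BCL2L11 was also lost without any single NTC library. With only sg1 and sg2 in the fit, none of the 3 passed (adjusted p = 0.0716 for BAK1, 0.0713 for CFLAR and 0.0989 for BCL2L11). Over all alternatives the adjusted p ranged from 0.000135 to 0.105 for BAK1, from 2.16e-05 to 0.0962 for CFLAR and from 0.000215 to 0.16 for BCL2L11.

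**Figure D2:**
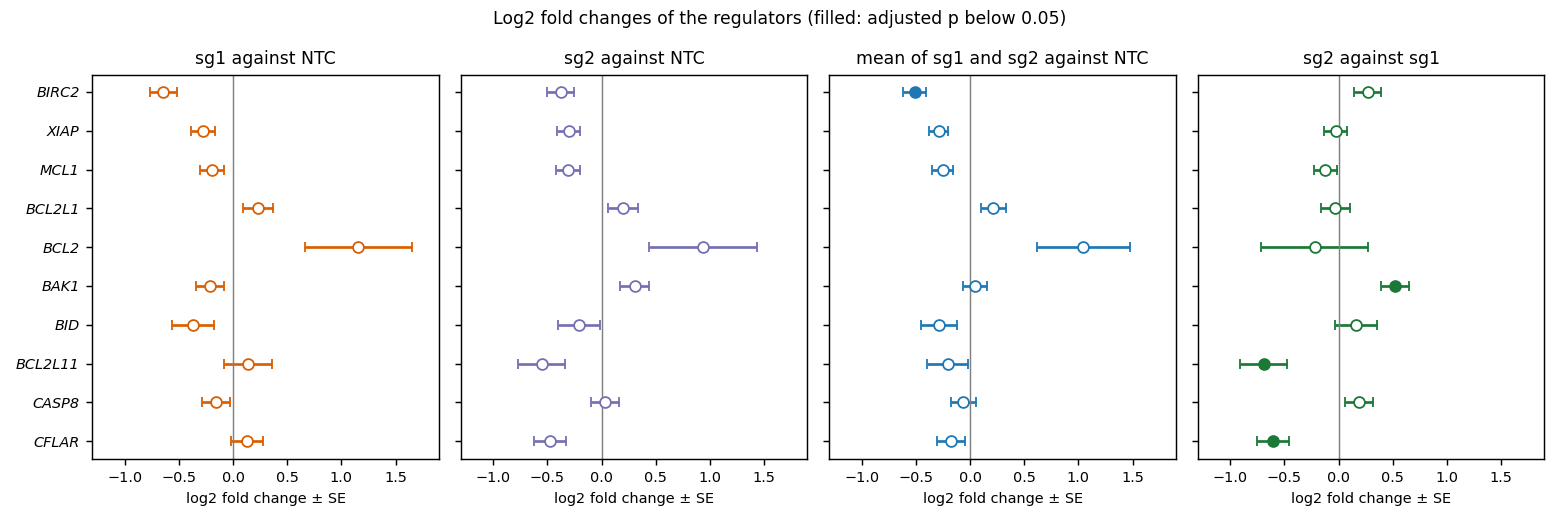
Log2 fold changes of the 10 members (x axis, with SE bars) for sg1, for sg2 and for their mean, each against NTC, and for sg2 against sg1; filled points passed limma at an adjusted p below 0.05. BIRC2 is the 1 filled point against NTC, at -0.51, and BAK1 (0.52), BCL2L11 (-0.69) and CFLAR (-0.60) are filled between the guides.

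Of 41 other genes of the pathway, in a list chosen beside the members, 36 were tested. With sg1 0 passed limma (0.194% of all tested genes), and 11 were at an unadjusted p below 0.05 (29.8%). With sg2 3 fell, where 8.76% of all tested genes passed in either direction, and in the mean of both guides 1 fell, where 3.98% passed. In sg2 against sg1 10 rose and 3 fell, 13 of 36 where 29.8% of all tested genes passed. Their median log2 fold changes were -0.11 with sg1, 0.00 with sg2 and 0.09 between the guides. BBC3, the p53-induced BH3-only gene PUMA, had 138, 193 and 183 normalized counts in sg2, 224, 224 and 203 in sg1, and 320, 271 and 330 in NTC. It fell by 0.85 with sg2 (limma adjusted p = 0.0126) and by 0.67 in the mean of both guides (adjusted p = 0.0317), and no knockout library reached NTC. The sg2 call of BBC3 was lost without NTC-1 or NTC-3 (over all alternatives adjusted p = 3.05e-05 to 0.0708), and the call in the mean held without any 1 sg2 library and was lost without any 1 of the other 6 (-0.76 to -0.60 over all 9 fits).

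The death ligand TRAIL, TNFSF10, and its receptor TNFRSF10B (DR5) fell with sg2 against NTC by 0.92 and 0.46 (adjusted p = 0.0287 and 0.0463) and against sg1 by 0.88 and 0.45 (adjusted p = 0.0222 and 0.0277) on the log2 scale. TNFSF10 was at 881, 787 and 863 in sg2, 1564, 1655 and 1436 in sg1, and 1638, 2262 and 1103 in NTC. All sg2 libraries lay below the rest, and NTC spread widely. The TNFRSF10B call against NTC held without sg2-1 and was lost without any 1 of the other 8 libraries, with a log2 fold change of -0.54 to -0.40 in those fits. The call of TNFSF10 held without NTC-3, sg1-3 or sg2-1 and was lost without any 1 of the other 6 (-1.19 to -0.67 over all 9 fits). With only sg2 and NTC in the fit, neither passed limma against NTC (adjusted p = 0.0831 for TNFSF10 and 0.122 for TNFRSF10B). Of 19 alternatives, 12 called TNFSF10 and 7 called TNFRSF10B against NTC. Against sg1 both were lost without any 1 of sg1-1, sg1-2, sg1-3, sg2-2 and sg2-3, at -0.93 to -0.83 for TNFSF10 and -0.50 to -0.38 for TNFRSF10B. Neither passed limma against sg1 with only sg1 and sg2 in the fit (adjusted p = 0.0652 for TNFSF10 and 0.0755 for TNFRSF10B).

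The pathway genes that rose in sg2 against sg1 included CYCS, BIRC5 and FADD, described here, and BAD, VDAC2, CASP6, PMAIP1 and HTRA2. CYCS, cytochrome c, which activates caspases once released, averaged 6301 ± 1980 normalized counts in sg2 and 2650 ± 87.0 in sg1 (SD, n = 3 each), a rise of 1.19 on the log2 scale (limma adjusted p = 0.0153). BIRC5, survivin, an IAP family member known for its part in mitosis, rose by 1.11 (adjusted p = 0.0139), and FADD, the adaptor of CASP8, by 1.07 (adjusted p = 0.0218). BMF, a BH3-only gene, fell by 1.71 (adjusted p = 0.0322), with 75.2, 36.9 and 44.4 in sg2 and 105, 105 and 414.5 in sg1, and without sg1-3 the value was -1.05 (adjusted p = 0.0636). Against NTC the log2 fold changes with sg1 and sg2 were -0.48 and 0.71 for CYCS and -0.93 and 0.18 for BIRC5. They were -0.70 and 0.37 for FADD and 0.16 and -1.55 for BMF, and none of these passed limma. All sg1 libraries of CYCS, BIRC5 and FADD lay below NTC. The sg2 libraries lay above NTC for CYCS and overlapped it for BIRC5 and FADD. In CYCS, BIRC5 and FADD the sg2-1 library was the lowest of sg2, with CYCS at 4015 there and at 7454 and 7434 in sg2-2 and sg2-3. The calls of CYCS, BIRC5, FADD and BMF held without sg2-1 and were lost without any 1 of the other sg1 and sg2 libraries, BMF also without NTC-1. In those fits the log2 differences were 1.04 to 1.22 for CYCS, 0.98 to 1.16 for BIRC5, 0.85 to 1.15 for FADD and -2.04 to -1.05 for BMF. With only sg1 and sg2 in the fit, none of these passed limma (adjusted p = 0.0703 for CYCS and BIRC5, 0.0712 for FADD and 0.0838 for BMF).

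**Figure D3:**
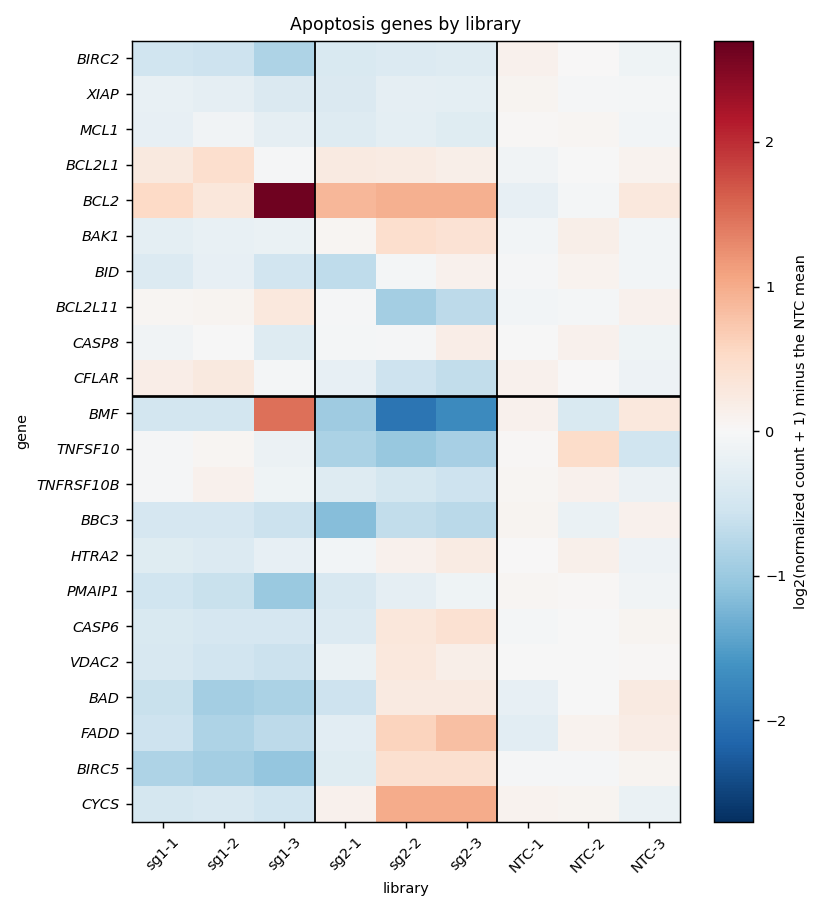
Log2(normalized count + 1) minus the NTC mean (colour) for the members (above the line) and other apoptosis genes that passed a test (below it) in each library (columns). The sg2-1 column looks paler than sg2-2 and sg2-3 for CYCS, FADD and BCL2L11, and the sg1-3 column holds the far values of BCL2 and BMF.

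The pattern of each member over the 9 libraries was set beside all tested genes by Pearson's r of log2(normalized count + 1), as a description of libraries that fall into groups. The closest gene was WDR47 to BIRC2 (r = 0.991), STX1A to CFLAR (0.992), EMC8 to BAK1 (0.995), AMY2B to BCL2L11 (0.993) and CLCN5 to BCL2 (0.995). Within the pathway the closest were PMAIP1 (NOXA) to BIRC2 (0.952), TNFRSF10B to CFLAR (0.949), CYCS to BAK1 (0.967) and BMF to BCL2L11 (0.857). For BCL2 no pathway gene came above 0.46. The BCL2 pattern is led by 1 library, sg1-3, at 2.62 above the NTC mean on the log2 scale and at most 0.96 elsewhere. How far the r of CLCN5 rests on that library was not tested. Tested genes outside the pathway that were at least as close numbered 17 for BIRC2, 89 for CFLAR and 90 for BAK1. They numbered 953 for BCL2L11 and 1694 for BCL2.

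The m6A summits ask where antibody-enriched RNA lay in these transcripts in KD and NTC cells. A summit is the point of highest enrichment in a called peak, with the authors' -log10 score, and 5923 were listed for KD and 8377 for NTC. The members held 9 summits in KD and 8 in NTC. BCL2L1, MCL1, CASP8 and CFLAR had summits in both lists, BIRC2 and BCL2 only in the KD list, XIAP only in the NTC list, and BCL2L11, BID and BAK1 in neither. With 1 pull-down per condition there is no replicate check, a gene with little RNA gives few reads, and the depth of these libraries is unknown, so a missing summit is not a missing mark.

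In CASP8 the KD summit lay at chr2:201284976 (score 9.63) and the NTC summit 3 nt away at 201284973 (score 8.04), both within 2738 nt of the 3′ end of the gene span. MCL1 had KD summits at 150577363 and 150579455 (scores 4.91 and 9.12) and NTC summits 20 and 72 nt from them (scores 4.17 and 1.75). In BCL2L1 the KD summit was at 31722078 (score 1.45), 27 nt from the NTC summit (score 2.7), about 3.2% into the span. Scores were not compared between lists.

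CFLAR had KD summits at 201137626 and 201138693 (scores 11.1 and 5.68) and NTC summits 0 and 94 nt from them (scores 5.45 and 2.92). All 4 of these also lie in the span of IMPDH1P10, a pseudogene inside CFLAR that was at 0 to 5.30 normalized counts, so the gene they belong to is uncertain. The remaining CFLAR summit of NTC, at 201160650 (score 8.18), had no KD partner, and neither did the XIAP summit of NTC at chrX:123886111 (score 6.52). The KD summits of BIRC2 at chr11:102350380 (score 3.89) and of BCL2 at chr18:63127508 and 63318309 (scores 1.43 and 4.19) had no NTC partner.

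Of the 8 NTC summits in members, 6 had a KD summit within 100 nt (75%, exact binomial interval 34.9 to 96.8%, counting error only), where 47% of all NTC summits did. The interval covers the share of the whole list. Of the 9 KD summits in members, 6 had an NTC partner (66.7%), against 66.5% of all KD summits. Most member summits scored below the median of their list, 6.79 in KD and 7.71 in NTC: 3 of 9 in KD (CASP8, 1 in MCL1 and 1 in CFLAR) and 2 of 8 in NTC (CASP8 and 1 in CFLAR) lay above it.

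**Figure D4:**
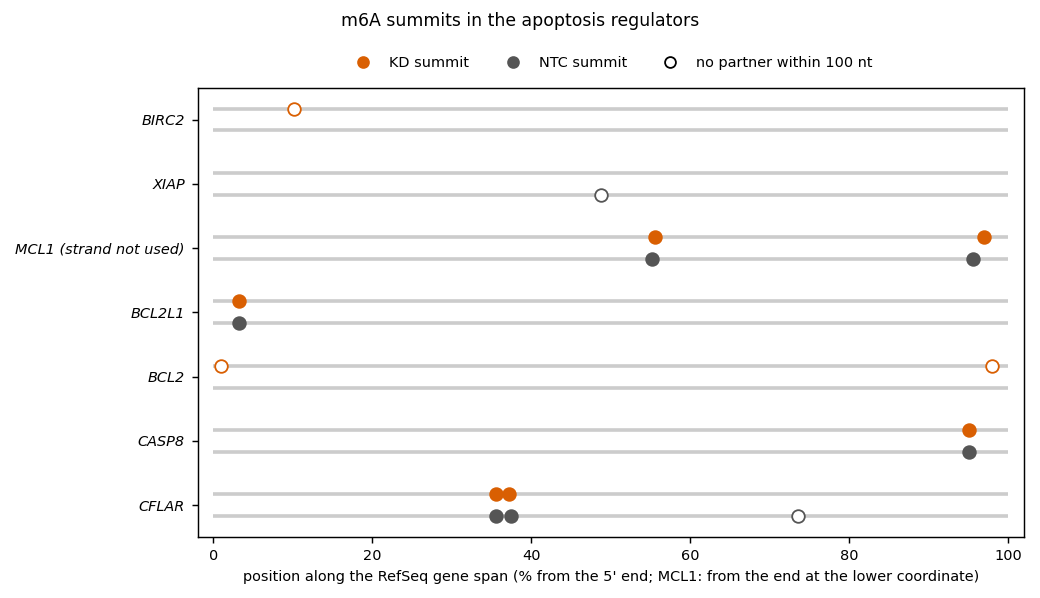
Position of each m6A summit along the RefSeq gene span (x axis, percent from the 5′ end; for MCL1 from the end at the lower coordinate) in the 7 members with a summit, KD above NTC; open circles have no partner within 100 nt in the other list. CASP8 carries its pair at 95% of the span and BCL2L1 near 3.2%, while the circles of BIRC2, XIAP and BCL2 are open.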

How the data were processed

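RNA-seq came from 9 libraries (3 each of sg1, sg2 and NTC) and MeRIP-seq as 1 summit list each for KD and NTC; sample titles gave groups and numbers. Build hg38 and the tools STAR, HTSeq, MACS2, DESeq2, cutadapt and FastQC 0.11.8 are listed, with no role or setting, per the submitters' processing notes. The authors deposited a normalized signal for RNA-seq: reads per gene divided by 1 factor per library and rounded. Of the values above 0, 100% lay within 0.1 read of a whole multiple of their library's step, so reads could be recovered; the step of NTC-2 is near 1, and its reads are less certain. Strand and shared-read settings of the counting are not given in the sources used here: BCL2L1, CFLAR, XIAP, BCL2 and BID, which overlap other annotated genes, are uncertain to that extent. The summit scores deposited by the authors are -log10 values, at least 1.3.

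As the values are normalized, limma 3.58.1 (R 4.3.3) was run on log2(value + 1) for the 15965 genes at 10 or more in at least 3 libraries. All 9 libraries entered 1 fit with a trended prior and no covariates, and p values were adjusted by Benjamini-Hochberg over these genes (threshold 0.05). Fold changes on this scale understate those of low genes. Alternatives were edgeR 4.0.16 and DESeq2 1.42.0 on recovered reads, a pseudocount of 0.5, no filter, TMM scaling, only the groups compared, replicate blocks, each library left out, sg1-3 and sg2-1 left out together and, chosen after seeing the data, scaling by total gene reads. The fit was tested on simulated counts. For the pairing check, deviations from group means of sg1 and sg2 libraries with 1 number correlated at 0.219, 0.156 and 0.258, and those with different numbers at -0.303 to -0.01; between NTC and the guides the same-number range was -0.131 to 0.02. Deviations from a group mean cancel within the group, so positive same-number values force lower different-number values, which are not separate evidence. From these data, and not from the labels, the alternative with a replicate block in sg1 and sg2 was taken as the paired one. All values not named as paired come from the fit without it.

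Summits were placed in RefSeq gene spans (GRCh38.p14) by coordinate; exons were not used, and strand came from the promoter table, which matched 9 of 10 members. The members, the list of other apoptosis genes and the tests were chosen with earlier results of these data known. Named genes were the members, VIRMA, up to 4 called pathway genes in each direction per comparison, and the closest pattern to each member, some of which are not reported here; IMPDH1P10 was chosen after its position was seen.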

Additional observations from a re-analysis of the deposited data

Results flagged for a closer look

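For 3 members and 13 other apoptosis genes, 6 of them named here, the effect of sg2 differed from that of sg1 by the direct limma test of sg2 against sg1 (adjusted p below 0.05), while 29.8% of all tested genes did so. Among the members the log2 difference was 0.52 for BAK1, -0.69 for BCL2L11 and -0.60 for CFLAR. Among the other genes it was 1.19 for CYCS, 1.11 for BIRC5 and 1.07 for FADD, and -1.71 for BMF, -0.88 for TNFSF10 and -0.45 for TNFRSF10B. Without sg2-1 the member differences were larger, at 0.64, -0.95 and -0.73. The BMF value includes 414.5 normalized counts in sg1-3, which is 3.97 times the mean of sg1-1 and sg1-2. What sets sg2-1 and sg1-3 apart was not tested.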

How the results depend on the processing

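The 0 members called with sg1 became 2 with DESeq2, 3 with only the groups compared, 1 with the replicate block in sg1 and sg2, 4 without sg1-3 and sg2-1 together, and 0 to 4 when each library was left out. The 0 called with sg2 became 4, 1, 1 and 7 under the same 4 alternatives, and 0 to 6 with libraries left out. The 1 called in the mean of both guides became 3 with DESeq2, 6 without sg1-3 and sg2-1 together, 0 with no filter, 0 with the replicate block in all libraries, 0 with scaling by total gene reads, and 0 to 3 with libraries left out. The 3 called between the guides became 0 with only the groups compared, 5 without sg1-3 and sg2-1 together, and 0 to 5 with libraries left out. Calls over all genes moved as well, so these counts are not particular to the members. Without sg1-3 and sg2-1 together, 6557 of 15965 tested genes were called with sg1 and 8014 with sg2. In that fit 4186 were called in the mean and 10213 between the guides. In the mean of both guides VIRMA (-0.45) passed with DESeq2 (-0.43) and without sg1-3 and sg2-1 together (-0.40), and ranged from -0.51 to -0.34 with libraries left out, passing only without sg2-1. Over all genes, calls with sg1 numbered 31, against 5978 with only the groups compared, 1197 with the replicate block in sg1 and sg2, 0 with the block in all libraries, 6490 without sg2-1, 2229 with DESeq2 and 0 without any 1 NTC or sg1 library. Calls with sg2 numbered 1399, against 7160 without sg2-1, 2655 with DESeq2 and 639 with only the groups compared; calls in the mean 636, against 1632 with DESeq2 and 3455 without sg2-1; calls between the guides 4758, against 3 with only the groups compared, 10037 without sg2-1 and 17 to 153 without any 1 of the other sg1 and sg2 libraries. The block in sg1 and sg2 changed no call of a member, VIRMA or a named pathway gene other than BIRC2 and VIRMA with sg1 and CFLAR with sg2; the block in all libraries ended the calls of BIRC2 and BBC3 in the mean, of TNFRSF10B with sg2 and of BCL2L11 between the guides.

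Some values that had not passed turned sign. Scaling by total gene reads moved the median of all genes with sg1 from -0.01 to 0.20, in the mean to 0.10 and between the guides to -0.24, and turned MCL1 (0.026), BAK1 (0.0037) and CASP8 (0.062) with sg1, CASP8 in the mean (0.033), and BID (-0.084) and CASP8 (-0.058) between the guides. Without sg1-3 and sg2-1 together BID with sg2 (0.036), CASP8 in the mean (0.011) and BCL2 between the guides (0.53) turned, and BCL2 then passed (adjusted p = 0.0358). With single libraries left out, CASP8 ranged from -0.044 to 0.092 and BID from -0.37 to 0.036 with sg2. Between the guides XIAP ranged from -0.088 to 0.020, BCL2L1 from -0.16 to 0.081, BCL2 from -0.65 to 0.51 and BID from -0.003 to 0.40. Of 750 member values under alternatives 650 kept their direction and side of the threshold, and most of these had not passed in the main fit. The values that had passed were less stable. BIRC2 in the mean kept its call in 7 of 18 alternatives. Between the guides BCL2L11 kept its call in 7 of 19, BAK1 in 12 and CFLAR in 13. The cause of the changes was not tested. Member summits of NTC with a KD partner were 50% within 50 nt, 75% within 200 nt and 66.7% in spans of a single gene; 0 of these summits scored 10 or more, so the stricter score gave no value. Depth of the pull-downs is unknown.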

Other observations

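In the 41 other apoptosis genes, 13 carried a KD summit and 19 an NTC summit, and the 13 all had one in both lists. The genes with a summit in the NTC list alone included BIRC3 (score 9.45), CASP9 (9.06), USP9X (6.04), XAF1 (3.57) and CASP2 (2.84). BBC3 had its pair 5 nt apart (KD score 9.27, NTC score 14.9), near the 3′ end of its span, and TRAF2 had its pair 1 nt apart (12.1 and 12.4). FADD held a KD summit at chr11:70203428 (score 14.9) whose nearest NTC summit lay 3062 nt away, beside a pair 1 nt apart. Of the 23 NTC summits in these genes 15 had a KD summit within 100 nt (65.2%, exact binomial interval 42.7 to 83.6%), where 47% of all NTC summits did, a share inside that interval. These genes were named for their summits after the positions were seen, and no replicate exists to test a difference.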
